A study of Saccharomyces cerevisiae with 142 samples.

Results

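Entry of budding yeast (Saccharomyces cerevisiae) into the cell cycle is controlled by a small set of transcription factors, and 10 of their genes were followed here among 5449 measured genes. SBF is a complex of the DNA-binding protein Swi4 with the shared subunit Swi6, and MBF pairs the DNA-binding protein Mbp1 with the same Swi6. SBF switches on genes of budding and of the G1 cyclins, and MBF genes of DNA replication. Whi5 holds SBF inactive in early G1 until the cyclin-dependent kinase with Cln3 and then Cln1 and Cln2 displaces it. Nrm1 is a corepressor that shuts MBF targets off as cells leave G1. Stb1 binds Swi6, and Msa1 and Msa2 are proteins that associate with SBF and MBF. Yox1 and Yhp1 are homeodomain repressors that act with Mcm1 at early cell cycle boxes, promoter elements found among others at SWI4, CLN3, CDC6 and the MCM helicase genes. The 10 genes were SWI4 (YER111C), SWI6 (YLR182W), MBP1 (YDL056W), WHI5 (YOR083W), NRM1 (YNR009W), STB1 (YNL309W), MSA1 (YOR066W), MSA2 (YKR077W), YOX1 (YML027W) and YHP1 (YDR451C). They were chosen by name, and each had 1 probe set on the array.

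The study holds 9 time courses of 6 groups, hybridised to 142 Affymetrix arrays. Cells labelled cdc14-3 (strain BF264-15D MATa bar1 cdc14-3, 21 arrays from 0 to 240 min) and cdc15-2 (BF264-15D MATa bar1 cdc15-2, 16 arrays from 0 to 180 min) grew with 2% dextrose. They were arrested in G1 with alpha factor at 25 °C, then shifted to 37 °C on release, 1 course each. Cdc14 is the phosphatase and Cdc15 a kinase of mitotic exit. The 4 other groups were re-analysed by the submitters from earlier series and began with small unbudded cells sorted by elutriation. Wild type at 30 °C (BF264-15DU MATa bar1, 14 arrays in each of 2 courses), the cyclin mutant (15 arrays in each of 2 courses) and cdc20 (14 and 18 arrays in 2 courses) were followed at 30 °C in YEP dextrose with 1 M sorbitol. The cyclin mutant has disruptions of all B-type cyclin genes, clb1::URA3, clb2::LEU2, clb3::TRP1 and clb4::HIS2, along with clb5::ARG4 and clb6::APE1, and carries GAL1-CLB1:LEU2. The cdc20 strain is bar1 cdc20::LEU2 with Pgall-CDC20::ADE2 and CFP-TUB1::URA3, so that its only stated source of Cdc20, which starts anaphase, is galactose-driven. Wild type at 37 °C (1 course of 15 arrays, 15 to 225 min, BF264-15DU mat a bar1) was grown at 25 °C before elutriation and then put into YEPD prewarmed to 37 °C. Every group grew in dextrose during its course. RNA protocols differ between the groups, so the work of each array series and its group cannot be told apart.

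All values below are log2 intensities of a gene's probe set, or differences between such values, and are compared within a gene only. The values of wild type at 30 °C, course 2, were used 1 row up from where they were deposited, which raised their correlation with course 1 from 0.0461 to 0.996 across probe sets. That displacement is inferred from the values. Among the disrupted cyclins, CLB2, CLB3 and CLB4 did not exceed 8.24 on any cyclin mutant array, against highest values of 10.15 to 11.51 in the courses of wild type at 30 °C. CLB1 lay between 10.43 and 11.37 and CLB5 between 9.74 and 11.12 in the mutant. CLB6 lay between 8.63 and 10.04 there, overlapping wild type at 30 °C (8.41 to 10.99). Where their probes lie relative to the disruptions was not examined, so these do not check the labels. CDC20 stayed between 8.63 and 9.72 in cdc20, against 7.44 to 10.55 in wild type at 30 °C. RNA integrity was read from TDH1 and ACT1, each as its 3' minus its 5' control probe set. Course means of this TDH1 difference were 2.98 and 2.59 for cdc20, 1.89 to 2.15 for the other courses at 30 °C, 1.497 for wild type at 37 °C, 1.97 for cdc15-2 and 1.002 for cdc14-3. It moves with the group in every comparison of cdc20, cdc14-3 and cdc15-2 below, and within cdc15-2 it ran from 0.656 at 24 min to 3.04 at 132 min. For ACT1 the course means were 0.51 and 0.48 in cdc20 and 0.41 to 0.58 in the other courses at 30 °C. They were 0.51 in wild type at 37 °C, 0.49 in cdc15-2 and 0.46 in cdc14-3. Within cdc15-2 the ACT1 difference ran from 0.41 to 0.57. So cdc20 lay within the other courses at 30 °C by ACT1 and above them by TDH1. The part of RNA integrity in the differences between groups was not tested.

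Most of the factors had an early pulse of expression at 30 °C. The cell cycle stage of the samples was not examined. Change over time within a group was tested with a smooth curve in limma and called at an adjusted p under 0.05 with a fitted range of at least 1. The p-values of this test, and of the later tests of late change and time profiles, treat successive samples of a course as independent. Samples of a course are not replicates of its group, so these p-values may be too small. In wild type at 30 °C, 9 of the 10 genes changed, against 36% of all genes, and in the cyclin mutant 9 changed, against 37.4%. In cdc20 8 changed, against 56.1%. At 37 °C, 5 changed in wild type (32.5% of all genes), 5 in cdc15-2 (18.9%) and 3 in cdc14-3 (22.7%). NRM1, YOX1 and YHP1 changed in all 6 groups. These are bulk samples, in which fewer cells at a stage and less RNA per cell cannot be told apart. MBP1 passed in none, with fitted ranges of 0.36 to 0.86. In cdc14-3 the curve returned ranges of 0.87 to 1.31 for SWI4, MSA1 and MSA2 and no call, although the measured SWI4 level was 8.23 at release, 10.01 at 24 min and again 8.22 by 60 min. When samples before 30 min were left out, SWI4, MSA1 and MSA2 were called there and YHP1 no longer was (0.85), so that 5 of the 10 passed. In cdc15-2 YHP1 then dropped below the range limit too (0.65).

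**Figure D1:**
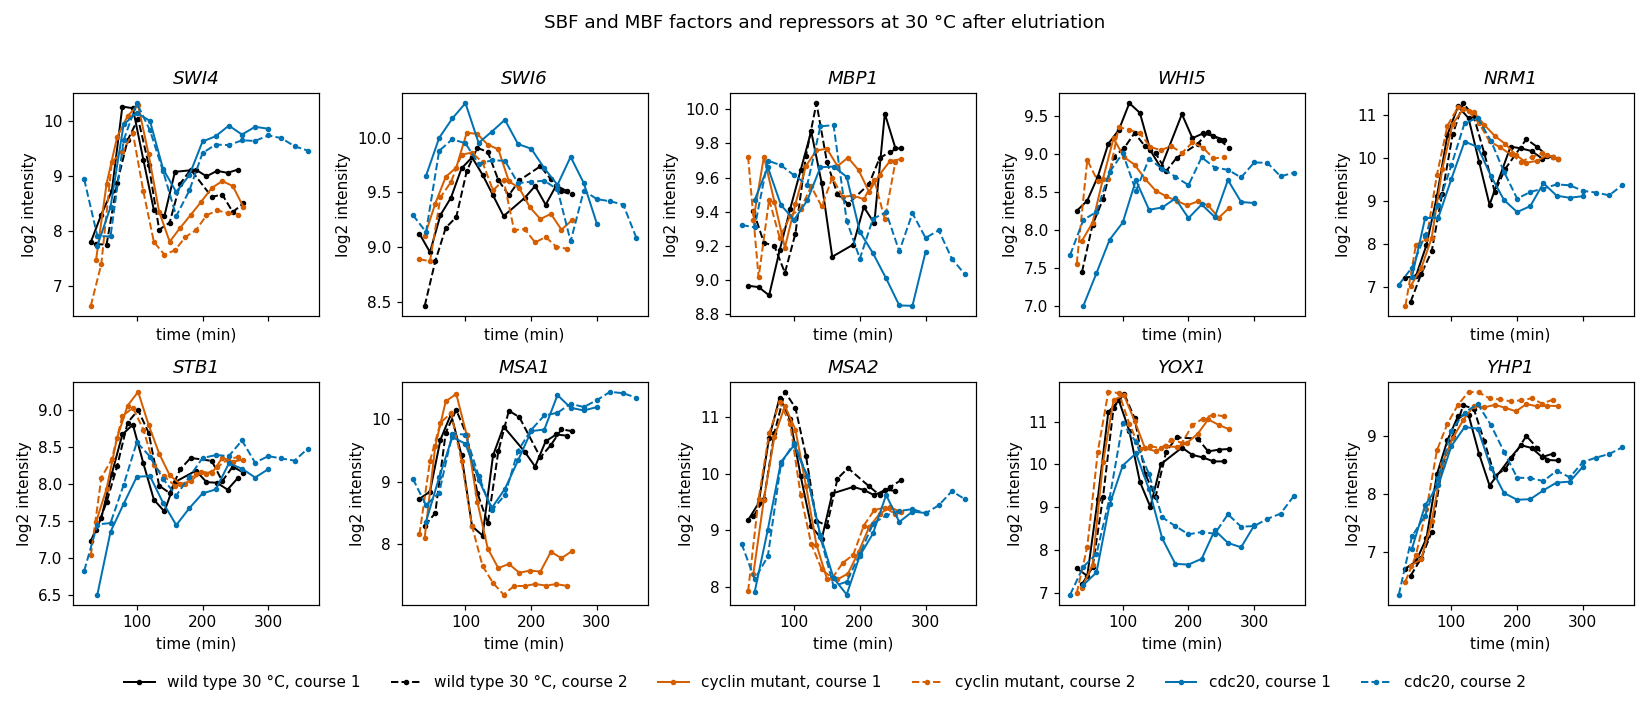
Log2 intensity (vertical axis of each panel) against time after elutriation in min for the 10 genes at 30 °C. Lines join the arrays of 1 course, with course 1 solid and course 2 dashed, for wild type (black), the cyclin mutant (orange) and cdc20 (blue). After the shared first pulse, MSA1 stays between 7.20 and 7.89 from 150 min on in the cyclin mutant, and YOX1 lies lowest in cdc20.

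The times of the pulses can be read against CLN2, a G1 cyclin and SBF target. CLN2 reached its early peak at 36 min in cdc14-3 and cdc15-2, at 75 min in wild type at 37 °C and at 94 to 102 min in the courses at 30 °C. The first pulse, taken as the highest value up to 24 min after that peak, came 12 to 24 min before CLN2 for MSA1 in all 9 courses. For MSA2 it came 12 to 16 min before CLN2 in 7 courses and together with it in both courses of cdc20. SWI4, STB1 and YOX1 lay within 1 or 2 samples of CLN2, from 16 min before to 20 min after it. NRM1 and YHP1 followed CLN2 by 12 to 24 min in every course, except NRM1 in wild type at 37 °C, which was highest together with it. Samples are 12 to 20 min apart, with a few wider gaps, so these times are known only to that step, and they were not tested. In 5 elutriated courses YHP1 was higher still at a later sample before 150 min, and NRM1 was so in wild type at 37 °C (10.63 at 105 min) and cdc20, course 2 (10.94 at 140 min), so their lags there are lower limits.

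**Figure D2:**
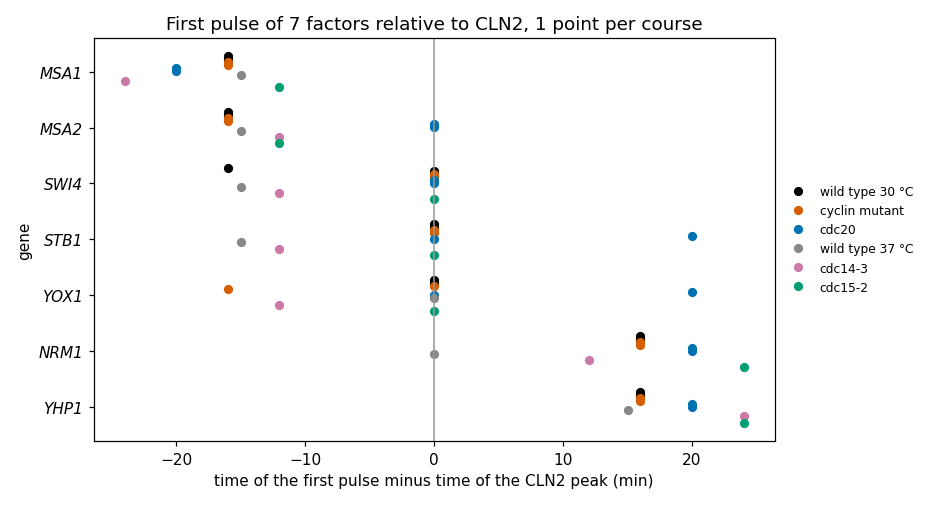
Time of the first pulse of 7 genes minus the time of the CLN2 peak, in min (horizontal axis), with 1 point per course coloured by group and shifted slightly in height to be visible. MSA1 lies left of the CLN2 line in every course and YHP1 right of it.

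Between groups, each course gave 1 late level per gene, the mean over its samples from 150 min in the elutriated courses and from 100 min in the alpha-factor courses. The late windows end at 180 to 360 min and are therefore unequal. A single limma fit took the 9 courses, with a mean for each of 6 groups and 3 residual degrees of freedom, and p-values were adjusted over the 5449 genes. Groups with 1 course are taken to vary like those with 2, and no label says whether the 2 courses are separate cultures, so the p-values may measure technical spread only. Against wild type at 30 °C, 3 of the 10 genes differed in the cyclin mutant, with 24.6% of all genes called, and 4 in cdc20, with 43.8%. The cyclin mutant and cdc20 differed from each other in 6, with 46% of all genes called. Against wild type at 37 °C, 3 genes differed in cdc14-3 (9.49% of all genes) and 3 in cdc15-2 (6.02%). The cdc14-3 and cdc15-2 arrests differed in 0 genes by limma, with 0.184% of all genes called, although 3 of the 10 had an unadjusted p under 0.05. The shares at 30 °C are near the background, so these counts say nothing particular of the 10 genes, and single genes are described by the size of their differences. Comparisons with the same wild type share its courses.

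**Figure D3:**
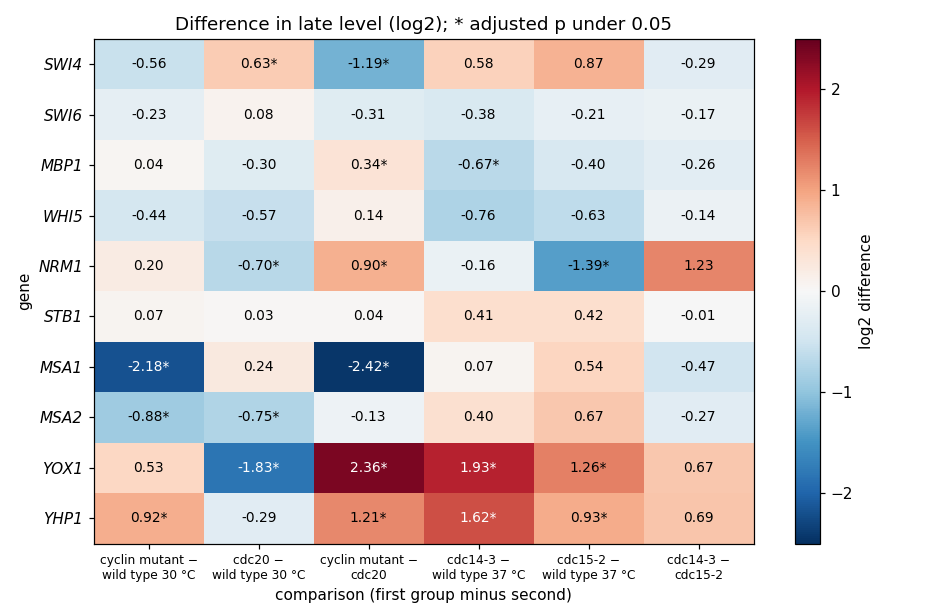
Difference in late level for the 10 genes (rows) in 6 comparisons (columns, first group minus second), in log2 units, with the value printed in each cell and an asterisk for an adjusted p under 0.05. The darkest cells are MSA1 in the cyclin mutant, at -2.18 and -2.42, and YOX1 in the cyclin mutant against cdc20, at 2.36.

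SWI4 encodes the DNA-binding subunit of SBF. It pulsed in every group at 30 °C, with fitted ranges of 2.25 to 3.38, although the call was lost without course 1 in wild type (2.21, limma, adjusted p = 0.0591) and in cdc20 (1.70, adjusted p = 0.119). In wild type at 30 °C, course 1, it was 7.79 at 30 min, 10.26 at 78 min, 8.27 at 142 min and 9.11 at 254 min. Course 1 of the cyclin mutant peaked at 10.29 (102 min), had its low of 7.80 at 150 min and ended on 8.44 at 262 min. For cdc20, course 1, the same 3 values were 10.15 (100 min), 8.70 (160 min) and 9.86 (300 min). In course 2 of the 3 groups the low came at 134, 142 and 160 min.

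Late SWI4 levels were 8.45 and 8.12 in the cyclin mutant, 9.07 and 8.60 in wild type at 30 °C and 9.56 and 9.39 in cdc20, so the 3 groups did not overlap. The cyclin mutant was lower than cdc20, with a difference of -1.19 ± 0.18 (SE), or 2.28-fold (limma, adjusted p = 0.00208). In cdc20 SWI4 was 0.63 ± 0.18 higher than in wild type (limma, adjusted p = 0.027), a call that was lost without wild type course 2 (0.40) and without cdc20 course 1 (0.55, adjusted p = 0.0875), and when samples after 262 min were left out (0.49, adjusted p = 0.0712). The difference between cyclin mutant and wild type, -0.56 ± 0.18, did not pass (limma, adjusted p = 0.0642), but did with the dimmest 20% of genes left out (0.0472). Within the late window SWI4 changed by a fitted 1.26 in cdc20 (limma, adjusted p = 1.53e-09).

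At 37 °C the late level of SWI4 was 10.14 in cdc15-2, 9.85 in cdc14-3 and 9.27 in wild type, where the whole course ran only from 8.80 to 9.65. After its trough at 60 to 72 min it was back at 9.99 and 9.996 by 96 min in the 2 alpha-factor courses and stayed between 9.69 and 10.21 to their ends. Neither mutant passed against wild type at 37 °C (cdc14-3 by 0.58 ± 0.26, cdc15-2 by 0.87 ± 0.26 with an adjusted p of 0.0889 in limma). In the order of late levels from cdc15-2 through cdc14-3, cdc20 and both wild types to the cyclin mutant, no neighbours were called apart.

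SWI6 and MBP1, the shared subunit and the DNA-binding subunit of MBF, moved little. SWI6 passed the range limit only in the cyclin mutant (1.06) and wild type at 30 °C (1.02), and in both it dropped below 1 without course 2 (0.92 and 0.77). All SWI6 values lay between 8.46 and 10.32, and no comparison of late levels was called. MBP1 ranged from 8.60 to 10.04. Its late level was 9.01 in cdc14-3 and 9.68 in wild type at 37 °C, a difference of -0.67 ± 0.16 (limma, adjusted p = 0.0455) that was lost when either course of wild type at 30 °C left the fit (adjusted p = 0.11). For cdc20 the MBP1 late levels were 9.198 and 9.31, against 9.67 and 9.53 for the cyclin mutant. That difference of 0.34 ± 0.11 (limma, adjusted p = 0.0425) was lost in 5 of 6 fits that left out 1 course at 30 °C.

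**Figure D4:**
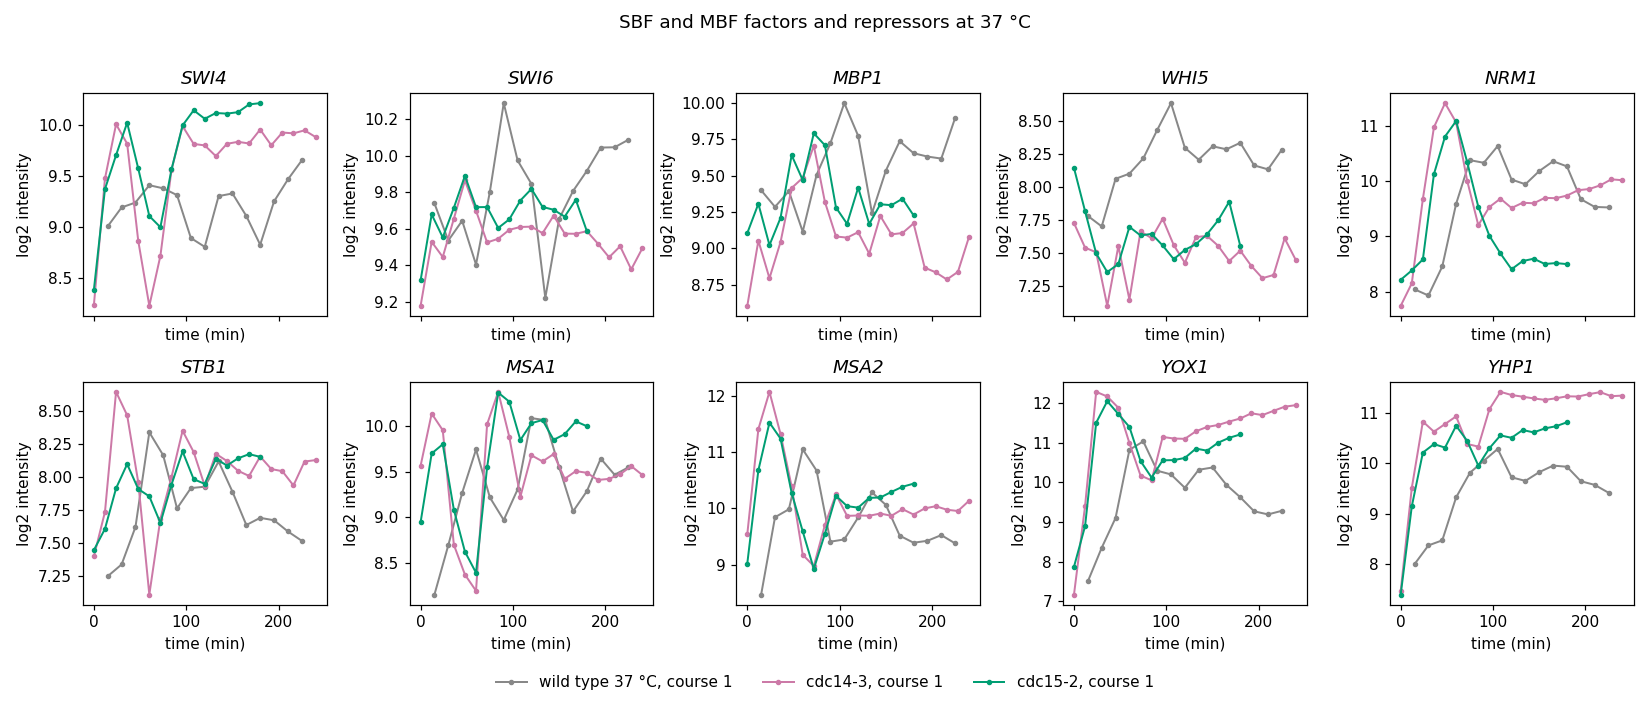
Log2 intensity (vertical axis of each panel) against time in min for the 10 genes at 37 °C, after release from alpha factor in cdc14-3 (pink) and cdc15-2 (green) or after elutriation in wild type (grey), 1 course each. YOX1 and YHP1 remain above wild type after 100 min in both mutants, and NRM1 of cdc15-2 lies lowest.

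WHI5, the inhibitor of SBF, is a dim probe set here, at the 11.2 percentile of mean level, and STB1, the Swi6-binding protein, at the 8.59 percentile. WHI5 changed in the groups at 30 °C, with fitted ranges of 1.41 to 1.59, while the ranges at 37 °C, 0.37 to 0.78, were under the limit. The adjusted p alone passed in wild type at 37 °C (limma, 0.00117) and cdc15-2 (0.000465), and a difference between temperatures was not tested. It had its lowest value of each 30 °C course at the first sample, such as 7.45 at 38 min in wild type, course 2, before 9.28 at 118 min. WHI5 late levels were highest in wild type at 30 °C, with 9.21 and 9.06. The cyclin mutant had 8.35 and 9.05, cdc20 had 8.34 and 8.78, and wild type at 37 °C had 8.25, while the level was 7.63 for cdc15-2 and 7.49 for cdc14-3. The courses of the cyclin mutant differed by more than the group means at 30 °C, and none of the 6 comparisons was called. Without cyclin mutant course 2, that mutant was called lower than wild type (-0.79, limma, adjusted p = 0.0359). The WHI5 difference between cdc20 and wild type at 30 °C was called with quantile normalization (-0.71, limma, adjusted p = 0.0407). It was also called without either course of the cyclin mutant (-0.57) and without cdc20 course 2 (-0.79). Wild type at 30 °C lay 0.89 ± 0.29 above wild type at 37 °C (limma, adjusted p = 0.0356), 2 groups that also differ in temperature, medium and array series.

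STB1 pulsed with SWI4, to which its values over the 142 arrays were among the most alike (r = 0.84). It changed in the 3 groups at 30 °C, with fitted ranges of 1.62 to 1.94. Its early peak was 9.25 and 9.04 in the cyclin mutant, 8.81 and 9.004 in wild type and 8.11 and 8.57 in cdc20. The difference of 0.80 ± 0.20 between cyclin mutant and cdc20 passed (limma, adjusted p = 0.038), and each fit that left out a course of wild type, of the cyclin mutant or cdc20 course 1 lost it. Late levels of STB1 lay between 7.67 and 8.32 in all 9 courses, and none of the 6 comparisons was called.

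MSA1, which encodes an SBF- and MBF-associated protein, was low late in the cyclin mutant and in no other group. Its first pulse reached 10.40 at 86 min and 10.10 at 78 min in the 2 courses of the mutant, against 10.08 and 10.15 in wild type at 30 °C. The level after the pulse was then 8.14 at 126 min and 8.34 at 134 min in the courses of wild type, and 9.88 at 158 min and 10.13 at 166 min. In the mutant it was 7.62 at 150 min and 7.38 at 142 min, and it ended at 7.89 at 262 min and 7.34 at 254 min. The mean of the last 3 samples lay 0.15 and 0.30 above the lowest value in the mutant courses. It lay 1.31 to 1.85 above it in wild type at 30 °C, cdc20, cdc14-3 and cdc15-2, and 0.58 above it in wild type at 37 °C.

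Late levels of MSA1 were 7.69 and 7.33 in the cyclin mutant and between 9.43 and 10.02 in the other 7 courses. Against wild type at 30 °C the mutant was lower, with a difference of -2.18 ± 0.15, or 4.53-fold (limma, adjusted p = 9.74e-05), the 20th lowest difference of 5449 genes. Against cdc20 the difference was -2.42 ± 0.15, or 5.36-fold (limma, adjusted p = 3.77e-05). Time profiles, which include these late samples, were called different from wild type at 30 °C for 74.7% of all genes. The MSA1 profile was among those that differed (limma, adjusted p = 3.46e-13). The curve of that difference, with its mean removed, spanned 2.93 from lowest to highest, the most among the 10 genes. With the courses set on the time of the CLN2 peak, MSA1 was called in the same comparisons. In the order of late levels the only neighbours called apart were the cyclin mutant and, above it by 1.92, wild type at 37 °C (limma, adjusted p = 0.000297).

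In cdc20 MSA1 rose again and then levelled off, with a fitted late change of 1.34 (limma, adjusted p = 8.9e-10). It was 8.54 at 140 min and 10.44 at 320 min in course 2, above its first pulse of 9.77 there, and 10.34 at 360 min. In course 1 it was highest at 240 min (10.38) and ended on 10.19 at 300 min. In the alpha-factor courses the highest value came on the second rise, 10.38 and 10.37 at 84 min, against first pulses of 10.14 and 9.80. Both courses had their low at 60 min, with 8.19 in cdc14-3 and 8.39 in cdc15-2, and late levels were 9.50 and 9.97.

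MSA2, a paralogue of MSA1, also had a first pulse in each course. Its early peak was 12.07 for cdc14-3 and 11.52 for cdc15-2, both at 24 min. Wild type peaked at 11.35 and 11.45 at 30 °C and at 11.05 at 37 °C, the cyclin mutant at 11.20 and 11.27, and cdc20 at 10.51 and 10.55. The early peak in cdc20 was lower than in wild type, with a difference of -0.87 ± 0.11 (limma, adjusted p = 0.0137), a call lost without either wild type course (adjusted p = 0.0735 and 0.0868). Late levels were 8.77 and 8.89 in the cyclin mutant, 8.86 and 9.07 in cdc20 and 9.69 and 9.73 in wild type at 30 °C. Both mutants were lower than wild type, with differences of -0.88 ± 0.12 (limma, adjusted p = 0.00223) and -0.75 ± 0.12 (limma, adjusted p = 0.00252). The difference between the mutants, -0.13 ± 0.12, was not called. At 37 °C the late level of MSA2 was 10.22 in cdc15-2, 9.95 in cdc14-3 and 9.55 in wild type. Neither mutant was called against wild type there, by differences of 0.67 for cdc15-2 and 0.40 for cdc14-3. That of cdc15-2 did pass in some alternative fits, such as quantile normalization (0.68) and a late window from 150 min (0.82). MSA2 changed again late in the cyclin mutant, by a fitted 1.53 (limma, adjusted p = 2.03e-07), from 8.15 at 158 min to 9.40 at 238 min in course 2. In cdc20 the late change was 1.57 (limma, adjusted p = 7.42e-09).

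NRM1, the MBF corepressor, changed in all 6 groups with fitted ranges of 2.81 to 4.73. It was 6.66 at 38 min and 11.28 at 118 min in wild type at 30 °C, course 2, with a low of 9.21 at 166 min and 10.44 at 214 min. In the cyclin mutant, course 2, it was 11.18 at 110 min and then between 9.92 and 11.09, with no such low. Late levels were 10.197 and 10.12 in the cyclin mutant, 9.93 and 9.98 in wild type at 30 °C and 9.12 and 9.396 in cdc20. In cdc20 NRM1 was lower than in wild type, with a difference of -0.70 ± 0.12 (limma, adjusted p = 0.00412). The cyclin mutant was higher than cdc20 by 0.90 ± 0.12 (limma, adjusted p = 0.00126).

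NRM1 was also the gene that set cdc14-3 and cdc15-2 furthest apart among the 10. After peaks of 11.41 at 48 min and 11.09 at 60 min, cdc14-3 was 9.20 at 84 min and 10.02 at 240 min, while cdc15-2 was 8.40 at 120 min and 8.498 at 180 min. In the late window cdc14-3 lay between 9.51 and 10.03 and cdc15-2 between 8.40 and 8.69. The difference of 1.23 ± 0.17, or 2.34-fold, was the 12th highest of 5449 genes and missed the threshold (limma, adjusted p = 0.0714). It passed in 4 of the alternative fits with adjusted p-values of 0.0266 to 0.0483. The curve of the difference between the time profiles, with its mean removed, spanned 1.94 from lowest to highest and was not called (limma, adjusted p = 0.11). Against wild type at 37 °C, whose late level was 9.92, cdc15-2 was lower, with a difference of -1.39 ± 0.17 (limma, adjusted p = 0.00768). For cdc14-3 the difference of -0.16 ± 0.17 did not pass.

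**Figure D5:**
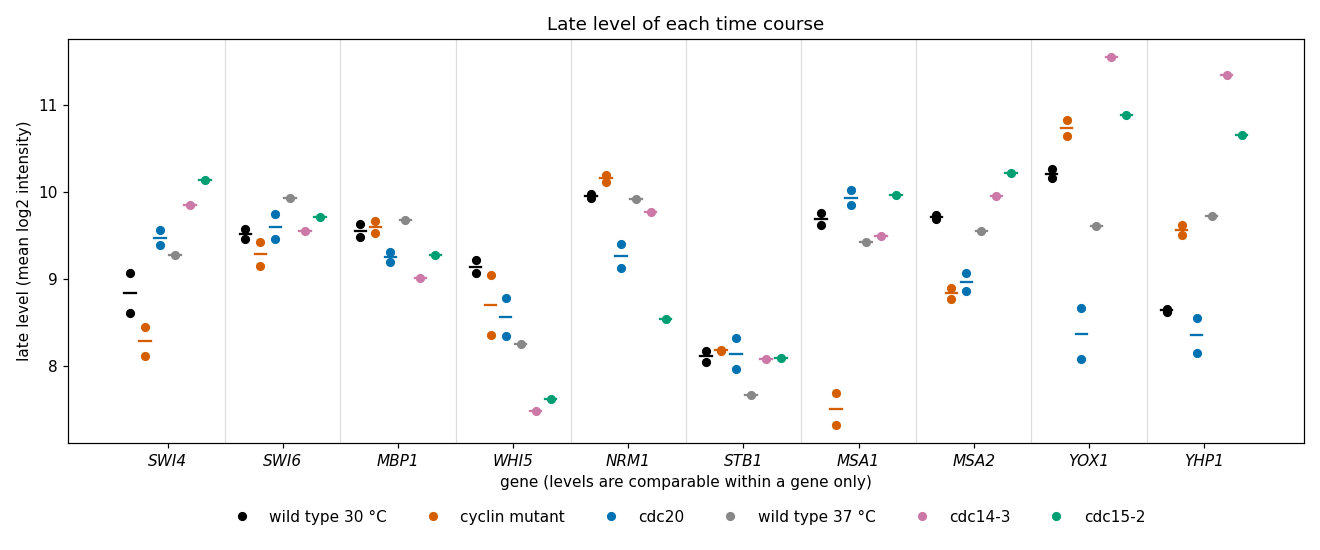
Late level (mean log2 intensity of the late window) of each gene, with 1 point per time course coloured by group and a bar at the group mean. Levels are comparable within a gene only. The 2 points of the cyclin mutant for MSA1 and of cdc20 for YOX1 stand below those of the other groups.

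YOX1, a repressor at early cell cycle boxes, changed in all 6 groups with fitted ranges of 3.36 to 5.15. Its cdc14-3 course opened with 7.17 at release and 12.28 at 24 min, passed through 10.05 at 84 min and ended on 11.94 at 240 min. In cdc15-2 it was 7.87 at 0 min, 12.04 at 36 min, 10.12 at 84 min and 11.21 at 180 min. In cdc20, course 1, it started at 7.18, was 10.26 at 120 min and had its low of 7.66 at 200 min. Course 2 started at 6.96, reached 10.97 and had its low of 8.37 at 200 min. The lowest late sample of the cyclin mutant was 10.31, and the highest late sample of cdc20 was 9.26.

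Late levels of YOX1 were 10.65 and 10.82 in the cyclin mutant, 10.15 and 10.26 in wild type at 30 °C and 8.08 and 8.66 in cdc20. In cdc20 it was lower than in wild type, with a difference of -1.83 ± 0.19, or 3.56-fold (limma, adjusted p = 0.000619), the 34th lowest difference of all genes. In the cyclin mutant it was higher than in cdc20 by 2.36 ± 0.19, or 5.13-fold (limma, adjusted p = 0.000136), the 18th highest. The difference of 0.53 ± 0.19 between the mutant and wild type missed the threshold (limma, adjusted p = 0.0778) and passed without either cdc20 course (0.0122). At 37 °C wild type had a late level of 9.61, against 11.54 for cdc14-3 and 10.88 for cdc15-2. YOX1 was higher than in wild type by 1.93 ± 0.26 in cdc14-3 (limma, adjusted p = 0.00843) and by 1.26 ± 0.26 in cdc15-2 (limma, adjusted p = 0.0388). The latter call was lost without either course of wild type at 30 °C (adjusted p = 0.0779) or of the cyclin mutant (0.0518). In wild type at 37 °C YOX1 was the gene called in the late window, with a fitted change of 1.15 (limma, adjusted p = 0.00845), against 0.184% of all genes, from 10.37 at 150 min to 9.28 at 225 min.

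YHP1 encodes the other of these repressors. In the cyclin mutant it reached 9.51 at 134 min and 9.76 at 126 min and stayed between 9.42 and 9.75 to the end, a late change of 0.02. Wild type at 30 °C, course 1, had 9.36 at 126 min, then a low of 8.15 at 158 min, and ended on 8.69. Late levels were 9.50 and 9.61 in the mutant, 8.62 and 8.66 in wild type and 8.15 and 8.55 in cdc20. The mutant was higher than wild type by 0.92 ± 0.14, or 1.89-fold (limma, adjusted p = 0.00483), and than cdc20 by 1.21 ± 0.14 (limma, adjusted p = 0.000725). Between cdc20 and wild type, where YOX1 differed by -1.83, the YHP1 difference was -0.29 ± 0.14, which did not pass (limma, adjusted p = 0.14).

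At 37 °C YHP1 was 7.45 at 0 min in cdc14-3, 10.93 at 60 min and 11.35 at 240 min, and 7.39, 10.75 and 10.82 at 0, 60 and 180 min in cdc15-2. Late levels were 11.34 and 10.66 against 9.72 in wild type. The differences of 1.62 ± 0.20 for cdc14-3 (limma, adjusted p = 0.00623) and 0.93 ± 0.20 for cdc15-2 (limma, adjusted p = 0.0431) passed. The cdc15-2 call was lost in the same fits as that of YOX1. Both mutants went through alpha-factor arrest and wild type did not, which cannot be told apart from genotype here.

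Change within the late window was tested on its own. Here 0 of the 10 genes were called in wild type at 30 °C by limma, with 0.44% of all genes called and 4 members at an unadjusted p under 0.05. The cyclin mutant had 1 call, MSA2, with 4.9% of all genes called, and cdc20 had 3 calls, SWI4, MSA1 and MSA2, with 14.6%. In cdc14-3 and cdc15-2, 0 were called by limma, with 1.16% and 0.275% of all genes called and 5 and 4 members at an unadjusted p under 0.05. These include YOX1 in cdc14-3, with a fitted late change of 0.87 that is below the required range of 1. The 3 late calls in cdc20 were also made with the TDH1 difference of each array as a covariate. With a window from 100 min SWI4 was not called there (0.66, limma, adjusted p = 0.211).

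The time profiles of the whole shared time range were compared as well. From wild type at 30 °C, 7 of the 10 genes differed in the cyclin mutant, with 74.7% of all genes called, and 9 in cdc20, with 74.3%. The 2 mutants differed from each other in all 10, with 79.2% of all genes called. Calls at this rate say little of single genes, and the exceptions are given instead. Between the cyclin mutant and wild type, SWI4 (adjusted p = 0.057), STB1 (0.278) and YOX1 (0.826) were not called by limma, and WHI5 was not between cdc20 and wild type (0.418). Between cdc14-3 and cdc15-2, 0 of 10 were called by limma, with 3.03% of all genes called and 1 member, NRM1, at an unadjusted p under 0.05.

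The height of the early peak was compared in the same way. Between the cyclin mutant and wild type at 30 °C, 0 of the 10 were called by limma, with 0.349% of all genes called and 0 members at an unadjusted p under 0.05. Differences there ran from -0.21 for MBP1 to 0.24 for STB1. The MBP1 value in cyclin mutant, course 2, is its first sample (9.72 at 30 min), so that difference is not one of pulse height. In cdc20, MSA2 and YOX1 peaked lower than in wild type, 2 of 10 with 26.2% of all genes called. In the cyclin mutant STB1, MSA1, MSA2 and YOX1 peaked higher than in cdc20, 4 of 10 with 29.7%. Both counts are near the shares of all genes and say nothing particular of the 10 genes. All 4 calls against cdc20 were lost without either course of the cyclin mutant, with differences of 0.36 to 1.08. YOX1 early peaks were 10.26 and 10.97 in cdc20 and 11.50 and 11.66 in wild type. That difference of -0.97 ± 0.25 (limma, adjusted p = 0.0462) was lost without any 1 of 5 of the 6 courses at 30 °C. TDH1 differences in cdc20 were highest at 80 and 100 min, near these peaks, with values of 3.70 and 3.41, and the part of RNA integrity was not tested. Against wild type at 37 °C, 0 of the 10 early peaks were called in cdc14-3 or cdc15-2 by limma, with 1.01% and 0.477% of all genes called and 5 and 2 members at an unadjusted p under 0.05. Between these 2 arrests 0 were called by limma, with 0% of all genes and 1 member at an unadjusted p under 0.05.

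The fall from the early peak to the late level combines both measures. At 30 °C it was called for 3 of the 10 genes between the cyclin mutant and wild type (8.3% of all genes), 3 between cdc20 and wild type (17%) and 6 between the mutants (16.3%). MSA1 fell by 2.71 and 2.77 in the cyclin mutant, against 0.46 and 0.39 in wild type, and in cdc20 its late level exceeded its early peak, with falls of -0.13 and -0.25. At 37 °C, 0 of 10 were called by limma for cdc14-3 and cdc15-2 against wild type, with 0.33% and 0.0734% of all genes called and 5 and 3 members at an unadjusted p under 0.05. Between cdc14-3 and cdc15-2, 0 were called by limma, with 0% of all genes and 5 members at an unadjusted p under 0.05. The highest MSA1 value before the late window lies on the second rise in the 3 courses at 37 °C, so its fall there is not that of the first pulse. Among others, YHP1 (11.08) and WHI5 (7.76) in cdc14-3 and STB1 (8.20) in cdc15-2 were highest before that window at 96 min. WHI5 in cdc15-2 was highest at 0 min (8.14). The early peaks and falls of these genes there are likewise not those of a first pulse.

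Genes that these factors act on were read from lists, described by counts alone. Of 9 genes with an early cell cycle box (CLN3, CDC6, FAR1 and MCM2 to MCM7), at which Yox1 and Yhp1 repress, 9 were lower in the cyclin mutant than in wild type at 30 °C, with 10.9% of all genes called lower. The median difference was -1.44, against 0.0046 over all genes. FAR1, a kinase inhibitor of the pheromone response, differed by -3.14 ± 0.16 (limma, adjusted p = 3.64e-05) and MCM7, a replicative helicase subunit, by -2.83 ± 0.21. CLN3, the upstream G1 cyclin, differed by -1.07 ± 0.22 and CDC6, which loads the helicase, by -0.72 ± 0.17. Against cdc20, 8 of 9 were lower, with a median of -2.06 and 25.4% of all genes called lower. Between cdc20 and wild type 3 of 9 differed, below the 43.8% of all genes, CLN3 by 1.13 ± 0.22, MCM4 by -0.53 ± 0.13 and MCM6 by -0.57 ± 0.13. At 37 °C, 2 of 9 were called in cdc14-3 against wild type, both higher, with a median of 0.36 and 9.49% of all genes called. In cdc15-2, 3 of 9 were called, all higher, with a median of 0.82 and 6.02% of all genes called.

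SBF targets were mostly higher in the cyclin mutant. Of 18 SBF targets, 10 were higher and 1 lower in the cyclin mutant than in wild type at 30 °C, with 13.8% and 10.9% of all genes called. SVS1, a cell wall gene, was higher by 1.46 ± 0.16 and CLN1 by 1.24 ± 0.11, and HO, the mating-type endonuclease gene, differed by -1.98 ± 0.18 (limma, adjusted p = 0.000457). In cdc20, 2 were higher and 11 lower than in wild type, with 26.7% and 17.2% of all genes called. KRE6, of wall glucan synthesis, was higher by 0.91 ± 0.14, while HO differed by -2.58 ± 0.18 and TOS6, a wall mannoprotein gene, by -2.34 ± 0.14. Between the cyclin mutant and cdc20, 13 were higher and 2 lower, with 20.6% and 25.4% of all genes called, the cyclin gene PCL1 by 3.32 ± 0.17 and CSI2 by 3.25 ± 0.12 at the upper end. SWI4 itself went the opposite way in this last comparison, with a difference of -1.19.

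MBF targets were called in both directions. Of 24 measured in a list of 26, 5 were higher and 3 lower in the cyclin mutant than in wild type at 30 °C, near the 13.8% and 10.9% of all genes. In cdc20, 2 were higher and 8 lower than in wild type, with 26.7% and 17.2% of all genes called. Between the cyclin mutant and cdc20, 7 were higher and 3 lower, with 20.6% and 25.4% of all genes called. RNR1, of DNA precursor synthesis, was lower in cdc20 than in wild type, with a difference of -1.63 ± 0.15 (limma, adjusted p = 0.000476), as was MCD1, a cohesin subunit, with -1.24 ± 0.16. Among 14 regulators of Start, PCL9, a Pho85 cyclin gene, was lower than in wild type at the same temperature, with differences of -2.34 ± 0.13 in the cyclin mutant, -2.24 ± 0.13 in cdc20 and -2.30 ± 0.18 in cdc14-3. It was the 1 list gene called between cdc14-3 and cdc15-2, by -1.58 ± 0.18 (limma, adjusted p = 0.038). SLT2, the wall integrity kinase, was higher in the cyclin mutant than in wild type by 1.73 ± 0.11.

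Genes with the most similar patterns were found by Pearson's correlation over the 142 arrays after removal of each course's mean. Arrays of a course share its time order, and the values describe likeness only. MSA1 was closest to MCM2 (0.91), MCM4 (0.89) and MCM3 (0.87), which are 3 of the 9 early cell cycle box genes. YOX1 was closest to CLN2 (0.93), CLN1 (0.92) and RNR1 (0.91). SWI4 was closest to PMS1 (0.85), of mismatch repair, the checkpoint kinase gene RAD53 (0.85) and STB1 (0.84), and STB1 itself to SLD5 (0.88), DPB2 (0.88) and ALG14 (0.87). NRM1 was closest to the histone variant gene HTZ1 (0.91), SRS2 (0.91) and GPI11 (0.91), and YHP1 to RAX2 (0.87), SRS2 (0.87) and GPI11 (0.86). MSA2 was closest to KCC4 (0.88), HLR1 (0.82) and POL12 (0.80).

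The highest correlations of SWI6 and MBP1 were lower, with OST6 (0.79), GPI8 (0.78) and TCB2 (0.77) for SWI6 and NUM1 (0.67), SIR4 (0.66) and GNA1 (0.65) for MBP1. WHI5 was closest to COS10 (0.81), PMT4 (0.81) and RAX1 (0.80). Among the 10 genes, NRM1 and YHP1 correlated at 0.83 and YOX1 and YHP1 at 0.82. MSA1 and NRM1, which lead and follow the CLN2 peak, had a correlation of -0.20.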

How the data were processed

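The deposited values are linear probe-set intensity values, which the authors made with the affy package per the submitters' processing notes. Sources used here do not give its version, the summary method or the normalization. The log2 was taken with a pseudocount of 0. Array medians lay between 1056 and 1362 in intensity. Precision is limited by the number of arrays within a course and, between groups, by the 9 courses. Of 5900 probe sets, 184 were controls and 218 had no gene name. The other 5498 were matched to RefSeq names, and the probe set with the highest mean was kept per gene, which left 5449.

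Wild type at 30 °C, replicate 2 (14 arrays), was moved up by 1 row (correlation with replicate 1 of 0.996, and at most 0.0494 for other moves of up to 10 rows). Fits were made in limma 3.58.1 (R 4.3.3, splines package 4.3.3) with Benjamini-Hochberg adjustment over all genes. Curves were natural splines with 5 degrees of freedom, or 2 for the late window, with an intercept per course. Profile differences were group-by-curve interactions. Figures used matplotlib 3.10.9. The fits were tested on simulated data with independent noise for each sample, which cannot show the effect of dependence within a course. The design assumed a log2 scale, and the values proved linear.

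The 10 genes and the lists were chosen with earlier results of these data known. Named list genes are those called with the 2 highest and 2 lowest differences of a comparison. Alternatives covered normalization, pseudocount, dim genes, late window, curve, the replicate block and each left-out course. Promoter and protein sequences were not used here.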

Additional observations from a re-analysis of the deposited data

Results flagged for a closer look

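The fall from the early peak to the late level differed between groups at 30 °C by limma's test of the difference. The fall subtracts the late level given above from the early peak, so it is not independent of either. Between the cyclin mutant and wild type at 30 °C, 3 of the 10 genes differed, with 8.3% of all genes called. MSA1 fell by a further 2.32 in the mutant (2.71 and 2.77, against 0.46 and 0.39) and MSA2 by a further 0.71, while YHP1 fell less, with a difference of -0.73. Between the cyclin mutant and cdc20, 6 differed, with 16.3% called. The fall in the cyclin mutant was larger for MSA1 by 2.93, SWI4 by 0.99, MSA2 by 0.84 and STB1 by 0.77, and smaller for YOX1 (-1.32) and YHP1 (-0.92). Between cdc20 and wild type, 3 differed, with 17% called. The fall in cdc20 was smaller for MSA1 (-0.62) and STB1 (-0.60) and larger for YOX1, by 0.87. Most of these calls were lost when a course was left out, as given with the processing. TDH1 differences were highest in cdc20, and their part in these differences was not tested.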

How the results depend on the processing

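Over single genes, 3201 of 3452 alternative values kept their direction and side of the threshold, 175 were no longer called, 72 became called and 4 reversed. Results that were not called to begin with are included. Some alternatives could not differ, since a window from 150 min is the main one for the elutriated courses. The share kept therefore does not measure how stable the calls were. MSA1 in the cyclin mutant and YOX1 in cdc20 stayed called for late level under all settings except the deposited row order. With that order, which sets values of different probe sets against each other, calls among the 10 genes dropped to 5 for change over time in wild type at 30 °C, to 0 in all 5 late-level comparisons that had any and in both early-peak comparisons of cdc20, and for the fall to 1 (cyclin mutant against wild type), 0 (cdc20 against wild type) and 1 (cyclin mutant against cdc20). YHP1 in the cyclin mutant then reversed to -0.92 and NRM1 in cdc20 to 0.82. With a late window from 100 min, late-change calls were 5 in cdc20, 5 in the cyclin mutant and 2 in wild type at 30 °C, late-level calls for cdc15-2 against wild type 1, fall calls for the cyclin mutant against wild type 1, and the YOX1 fall reversed to -0.84 (cdc20 against wild type) and 0.52 (cyclin mutant against cdc20). These windows take in the first pulse. With no minimum range, change-over-time calls were 10 in wild type at 37 °C, 5 in cdc14-3 and 9 in cdc15-2, and without samples before 30 min 5 in cdc14-3. Quantile normalization gave 7 late-level and 6 early-peak calls for cdc20 against wild type. For cdc14-3 against cdc15-2, a window from 150 min or leaving out the dimmest 20% of genes gave 1 late-level call, NRM1. Other causes were not tested.

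Same-numbered courses deviated together only weakly, with correlations of 0.0333, 0.0897 and 0.0711. Whether courses of different groups shared any handling was not tested beyond these values. The replicate block gave 5 late-level and 1 fall call for the cyclin mutant against wild type and 2 early-peak calls for it against cdc20. The late-level calls gained were SWI4 (adjusted p = 0.0188) and YOX1 (adjusted p = 0.0433).

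With 1 course left out, calls ranged from 1 to 2 for late change in the cyclin mutant. Late-level calls ranged from 0 to 1 for cdc14-3 against cdc15-2 and from 1 to 4 for cdc15-2 against wild type. Early-peak calls ranged from 0 to 4 for cdc20 against wild type and from 0 to 4 for the cyclin mutant against cdc20. Fall calls ranged from 0 to 1 for the cyclin mutant and from 0 to 1 for cdc20 against wild type, and from 1 to 4 between these mutants. Over all genes, late-level calls in the cyclin mutant against wild type numbered 1342, and 428 and 429 without a wild type course. WHI5 and STB1 are dim and were not tested in the setting that left out the dimmest genes.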
